A study of Arabidopsis thaliana with 12 samples.

Results

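The genes described here are 94 *Arabidopsis thaliana* genes that the array's annotation knows by locus code alone, with no gene symbol, and whose transcripts were higher after a night in short days than in continuous light whether or not the seedlings carried PIF1, PIF3, PIF4 and PIF5. A gene was a member when its mean log2 signal in SD exceeded that in LL by at least 0.8 in *pifq* and by at least 0.8 in WT, with a mean of at least 6 in WT SD. These values chose the members, so that both SD responses are given below as descriptions without a test. The 94 members are 0.638% of the 14743 locus-only genes measured, within 38130 probe sets tested in all, and 42.2% of the 223 locus-only genes that met the WT limits. The same limits were met by 13 of 1799 genes with a symbol (0.723%) and by 125 of 21588 probe sets with no gene assigned here (0.579%), and the share of locus-only genes lay between those shares.

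The study asked which part of the transcriptome of young seedlings in short days depends on the PIF quartet (PIFq). Whole 3-day-old seedlings of 4 groups were profiled on AraGene ST arrays with 3 biological replicates each. *pifq* SD seedlings lacked the 4 PIFs and were kept in short days of 8 h white light, at 85 µmol m-2 s-1, and 16 h darkness until the end of the night, at 24 h. *pifq* LL seedlings of the same mutant spent 2 days in SD and the last day in uninterrupted white light, and were taken at the same 24 h. WT SD and WT LL seedlings were Col-0 handled in these same ways, and no group received sucrose. The labels give the mutant only as *pifq*, without its single alleles, and give no batch or scan date. Levels are log2 signals, so that a difference of 1 is a doubling, and errors of differences are SE of the fit with 3 arrays per group. As whole seedlings were used, more cells of a type and more transcript per cell cannot be told apart, and a rise in SD cannot be told apart from a decline in LL, as each regime was sampled at 1 time.

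PIFs are bHLH transcription factors that red-light-activated phytochromes bind and send to degradation, so that they accumulate through long nights and drive elongation genes of the seedling. Darkness also ends photosynthesis, and plants that run low on sugar switch on catabolism of amino acids, protein and lipid, a response known from dark-treated leaves and starved cells. The circadian clock adds rhythms that persist in continuous light. Night-induced genes can therefore lie downstream of several inputs, of which PIFq is 1.

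In both genotypes the members rose together to a moderate extent. The *pifq* response spanned 0.81 to 2.15 with a median of 1.04 (2.06-fold), and the WT response spanned 0.81 to 2.98 with a median of 1.19 (2.28-fold). A response of at least 1 was seen for 54 members in *pifq* and for 74 in WT, and one of at least 2 for 2 members in *pifq* and 8 in WT. The 3 *pifq* SD arrays lay above the 3 *pifq* LL arrays for 90 of the 94 members (10.6% of all probe sets), and the WT SD arrays above the WT LL arrays for all 94 (13.8% of all probe sets). All 6 SD arrays exceeded all 6 LL arrays for 90 members (4.82% of all probe sets). The exceptions were AT1G67910, AT1G30720, AT3G60180 and AT5G05880, in which single *pifq* arrays crossed. By limma, at an adjusted p under 0.05 and at least 1.5 fold, 88 members were called higher in *pifq* SD (1.79% of all probe sets) and 91 higher in WT SD (3.16%). These counts follow from the limits and carry no weight of their own.

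**Figure D1:**
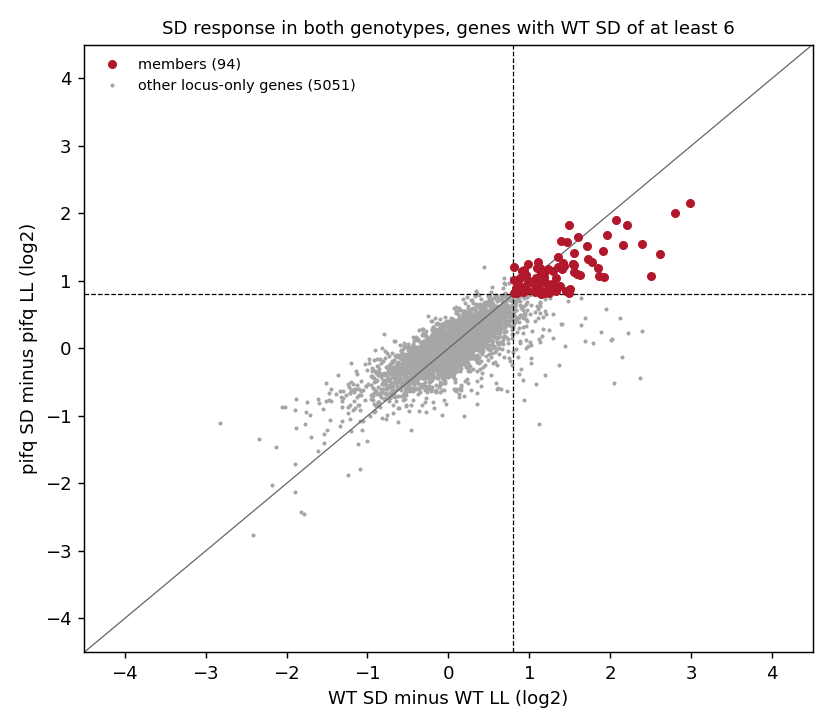
Each point is a locus-only gene with a WT SD mean of at least 6, placed by its WT SD minus WT LL difference (x axis, log2) and its *pifq* SD minus *pifq* LL difference (y axis, log2), with the 94 members in red, the limits of 0.8 dashed and the line of equal responses solid. Most members lie below the line of equal responses, 72 of 94, among them all 8 with a WT response of at least 2.

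Because the limits choose the responses, they were read again in arrays that had no part in a choice. When genes were chosen on 2 replicates of each group, the difference in the arrays of the remaining replicate number was above 0 in both genotypes for 106 of 110 genes with replicate 1 held out, 83 of 83 with replicate 2 and 86 of 86 with replicate 3. The share of all genes above 0 in the held-out arrays was not computed, so that these counts have no background beside them. The held-out median in *pifq* was 0.77, 1.11 and 1.16, and that in WT was 1.08, 1.35 and 1.19. Of the genes chosen without replicate 1, 49 of 110 reached 0.8 in *pifq* and 88 of 110 in WT in the replicate 1 arrays. The choices without replicates 2 and 3 gave 67 of 83 and 74 of 86 in *pifq*, and 79 of 83 and 73 of 86 in WT. The replicate 1 arrays thus held the smallest *pifq* responses. The median level over the members was 7.59, 7.84 and 7.92 in the *pifq* SD arrays, 6.69, 6.60 and 6.62 in *pifq* LL, 7.74, 7.86 and 7.75 in WT SD and 6.39, 6.33 and 6.53 in WT LL. Replicate 1 was the lowest of its group for 70 members in *pifq* SD and for 66 members in WT SD. The share of all probe sets with this order was not computed. Over all probe sets tested the medians were 5.05, 5.048 and 5.065 in *pifq* SD and 5.029, 4.998 and 5.032 in WT SD.

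**Figure D2:**
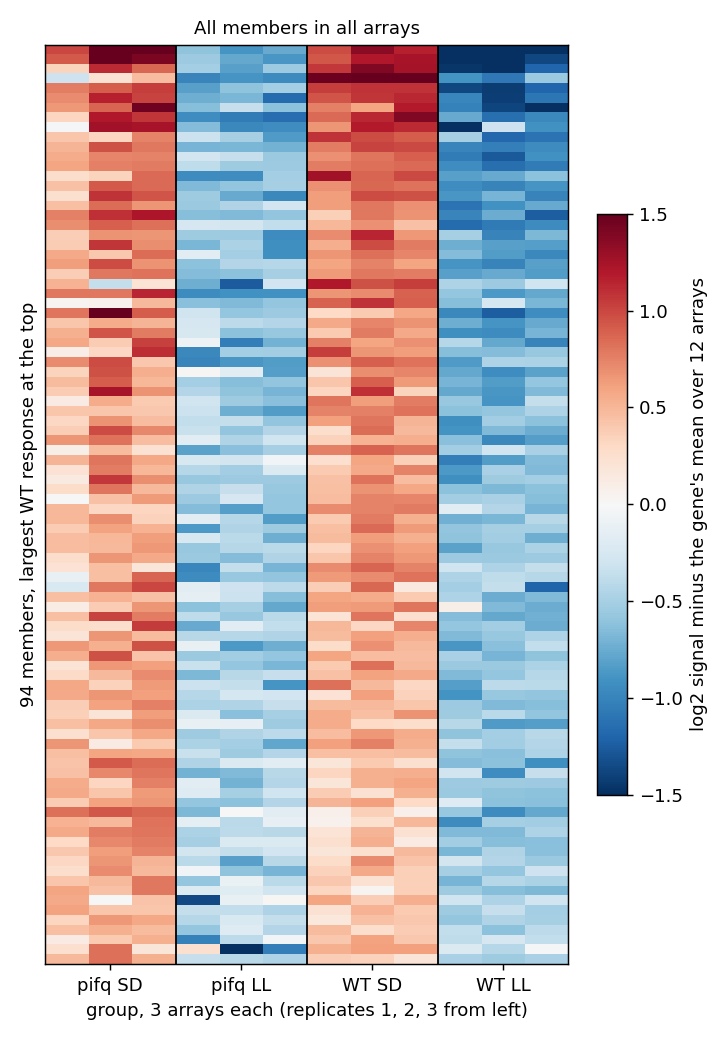
Rows are the 94 members, ordered by WT response with the largest at the top, and columns are the 12 arrays in groups of 3 (*pifq* SD, *pifq* LL, WT SD, WT LL). Colour is the log2 signal minus the mean of the gene over the 12 arrays, red above and blue below, with the colour at its darkest from 1.5 on. The SD columns are red and the LL columns blue in both genotypes, apart from single arrays of a few genes.

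AT1G19540 had the largest responses in both genotypes, with 8.21, 8.81 and 8.82 in *pifq* SD and 6.6, 6.33 and 6.45 in *pifq* LL, against 8.19, 8.55 and 8.37 in WT SD and 5.42, 5.13 and 5.61 in WT LL. Its SD response was 2.15 ± 0.19 in *pifq* and 2.98 ± 0.19 in WT. The SD arrays of the genotypes overlapped and the LL arrays did not, with *pifq* LL above WT LL by 1.07 ± 0.19. The neighbouring gene AT1G19530 was lower in level, at 6.79, 7.02 and 7.61 in *pifq* SD and 5.5, 5.79 and 5.52 in *pifq* LL, against 6.89, 6.74 and 7.33 in WT SD and 5.12, 4.76 and 4.61 in WT LL. It had the same arrangement, with a response of 1.53 ± 0.23 in *pifq* and 2.15 ± 0.23 in WT and a *pifq* LL excess of 0.77 ± 0.23. These genes adjoin each other in the RefSeq annotation (TAIR10.1), and their probe sets are separate.

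AT1G21400 was read at 9.92, 10.49 and 10.41 in *pifq* SD and 8.46, 8.23 and 8.13 in *pifq* LL, against 9.93, 10.2 and 10.24 in WT SD and 7.17, 7.17 and 7.64 in WT LL. It responded by 2.0 ± 0.19 in *pifq* and by 2.79 ± 0.19 in WT, and its 3 *pifq* LL arrays again exceeded the 3 WT LL arrays, by 0.94 ± 0.19 on average. AT4G01870 began from a low LL level and showed no such step, with 5.92, 6.81 and 6.67 in *pifq* SD and 4.67, 4.56 and 4.46 in *pifq* LL, against 6.45, 6.73 and 6.99 in WT SD and 4.84, 4.47 and 4.64 in WT LL. Its responses of 1.9 ± 0.23 in *pifq* and 2.07 ± 0.23 in WT differed by less than their errors. AT5G16980 had the widest replicate spread of the 10 members with the largest WT response, at 6.59, 7.87 and 7.84 in *pifq* SD and 5.95, 5.64 and 5.68 in *pifq* LL, against 7.28, 7.8 and 7.73 in WT SD and 4.94, 6.29 and 5.7 in WT LL. Its responses were 1.68 ± 0.39 in *pifq* and 1.96 ± 0.39 in WT.

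**Figure D3:**
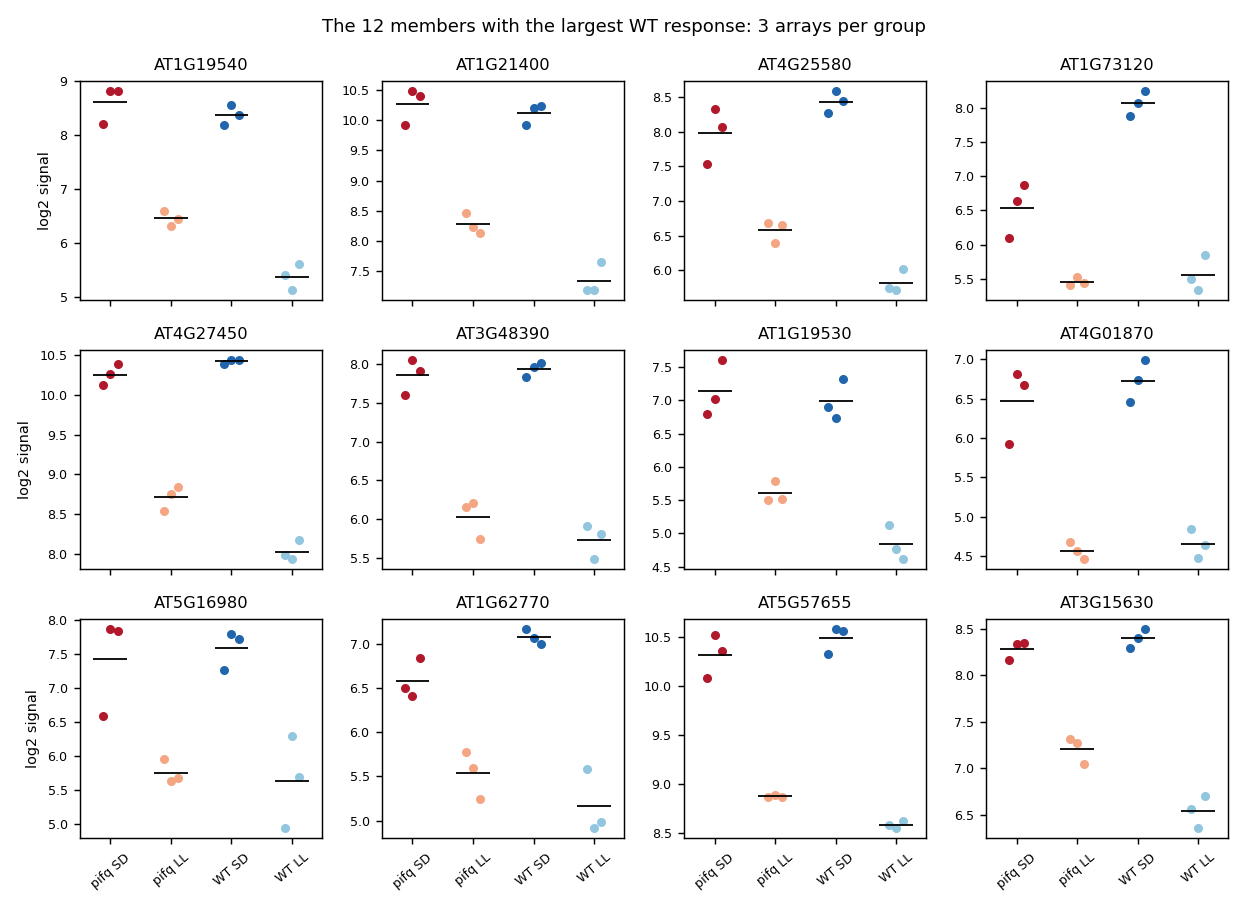
Each panel is 1 of the 12 members with the largest WT response, with the log2 signal of each of the 3 arrays per group as points and the group mean as a bar, and with its own y axis that does not start at 0. In AT1G73120 the *pifq* SD points, at 6.09 to 6.87, stand below the WT SD points, at 7.88 to 8.24, and in AT1G19540 the *pifq* LL points stand above the WT LL points.

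Among members whose product is described, AT4G27450 and AT3G15450 both encode aluminium induced proteins with YGL and LRDR motifs, and AT3G15450 was the brightest member in every group. AT3G15450, which the list of dark and sugar starvation genes holds, had 11.76, 12.14 and 11.97 in *pifq* SD and 10.75, 10.85 and 11.02 in *pifq* LL, against 11.93, 12.09 and 11.99 in WT SD and 10.2, 10.4 and 10.55 in WT LL. Its response was 1.08 ± 0.14 in *pifq* and 1.62 ± 0.14 in WT. AT4G27450 stood at 10.12, 10.26 and 10.39 in *pifq* SD and 8.54, 8.75 and 8.84 in *pifq* LL, against 10.39, 10.44 and 10.44 in WT SD and 7.98, 7.93 and 8.17 in WT LL, a response of 1.54 ± 0.12 in *pifq* and 2.4 ± 0.12 in WT. Both genes reached nearly equal SD levels in the genotypes and had *pifq* LL arrays above all WT LL arrays, by 0.49 ± 0.14 for AT3G15450 and 0.69 ± 0.12 for AT4G27450. AT1G56220, a dormancy/auxin associated family protein, shared this arrangement, with 10, 10.16 and 10.19 in *pifq* SD and 9.03, 8.88 and 8.87 in *pifq* LL, against 10.17, 10.23 and 10.26 in WT SD and 8.48, 8.28 and 8.36 in WT LL. It responded by 1.2 ± 0.11 in *pifq* and 1.85 ± 0.11 in WT.

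The other members above 10 in WT SD were AT5G57655, with 10.08, 10.52 and 10.36 in *pifq* SD and 8.87, 8.89 and 8.86 in *pifq* LL, against 10.33, 10.58 and 10.56 in WT SD and 8.58, 8.55 and 8.62 in WT LL, and AT5G26740, with 9.99, 10.46 and 10.27 in *pifq* SD and 9.38, 9.37 and 9.35 in *pifq* LL, against 10.27, 10.41 and 10.34 in WT SD and 9.13, 9.22 and 9.33 in WT LL. Their groups were separated in SD and LL within each genotype. The responses of AT5G57655 were 1.45 ± 0.13 in *pifq* and 1.91 ± 0.13 in WT, and those of AT5G26740 were 0.88 ± 0.13 in *pifq* and 1.11 ± 0.13 in WT. Of the 94 members, 6 exceeded 10 in WT SD and 27 lay under 7, so that bright and dim transcripts were both present. Median levels were 7.77 in *pifq* SD, 6.55 in *pifq* LL, 7.78 in WT SD and 6.37 in WT LL. The residual standard deviation had a median of 0.19 over the members, against 0.26 over all probe sets tested. Level was not matched, as the median WT SD level over all probe sets was 4.99. The median was 0.18 for the 129 locus-only genes that met the WT limits but rose by less in *pifq*. It was also 0.18 for the 13 genes with a symbol that met the same limits.

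A description of the product was at hand for 32 of the 94 members. The descriptions come from a list of genes that the study called in its own comparisons, so that they are no random draw and their shares cannot be set against those of all genes. They fell into enzymes of metabolism (9), protein turnover (4), cell wall and surface proteins (2), stress proteins (2), transcription regulation (2) and other products (13). All members of these groups rose by at least 0.8 in both genotypes because the limits demanded it.

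The 9 enzymes responded by 0.82 to 1.60 in *pifq* and by 0.83 to 1.54 in WT. AT4G33150 encodes the bifunctional lysine-ketoglutarate reductase/saccharopine dehydrogenase, which opens the breakdown of lysine. It had 9.44, 9.87 and 9.89 in *pifq* SD and 8.43, 8.46 and 8.57 in *pifq* LL, against 9.72, 9.87 and 9.85 in WT SD and 8.27, 8.31 and 8.24 in WT LL, and responses of 1.25 ± 0.13 in *pifq* and 1.54 ± 0.13 in WT. The alpha/beta hydrolase AT2G39400 had 6.86, 7.13 and 6.55 in *pifq* SD and 5.16, 5.28 and 5.31 in *pifq* LL, against 6.83, 7.04 and 6.96 in WT SD and 5.3, 5.68 and 5.67 in WT LL. It was 1 of 3 enzymes with a larger estimate in *pifq*, 1.6 ± 0.16, than in WT, 1.4 ± 0.16. The family also gave AT1G02660 and AT3G62860, with responses of 0.85 ± 0.17 and 1.11 ± 0.14 in *pifq* and 1.34 ± 0.17 and 1.18 ± 0.14 in WT. The ketose-bisphosphate aldolase AT1G18270 responded by 0.97 ± 0.14 in *pifq* and 1.2 ± 0.14 in WT, and the GroES-like alcohol dehydrogenase AT5G63620 by 1.04 ± 0.16 and 0.89 ± 0.16 in the same order. The other 3 enzymes, an oxidoreductase (AT4G38540), a haloacid dehalogenase-like hydrolase (AT2G32150) and a dehydrogenase of the erythronate-4-phosphate family (AT1G19400), responded by 0.82, 1.05 and 0.89 in *pifq* and by 1.19, 1.15 and 0.83 in WT.

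Of the 4 genes of protein turnover, 3 encode proteases and 1 an F-box protein, a class that selects substrates for ubiquitin ligases. The F-box gene AT5G27920 had 7.4, 8.32 and 7.96 in *pifq* SD and 6.7, 6.72 and 6.72 in *pifq* LL, against 7.7, 8.08 and 7.72 in WT SD and 6.33, 6.73 and 6.75 in WT LL. Its responses of 1.18 ± 0.22 in *pifq* and 1.23 ± 0.22 in WT were nearly equal. The cysteine proteinase AT2G34080 had 6.71, 7.34 and 6.92 in *pifq* SD and 6.4, 6.22 and 5.55 in *pifq* LL, against 6.57, 7.08 and 7.12 in WT SD and 5.62, 5.44 and 5.58 in WT LL, with a response of 0.93 ± 0.24 in *pifq* and 1.38 ± 0.24 in WT. One *pifq* LL array of AT2G34080, at 6.4, came close to the lowest *pifq* SD array, at 6.71. A second cysteine proteinase, AT1G29090, responded by 0.99 ± 0.19 in *pifq* and 1.18 ± 0.19 in WT, and the aspartyl protease AT1G66180 by 1.25 ± 0.18 in *pifq* and 0.99 ± 0.18 in WT.

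Products linked to cell surface, stress or seed included AT5G56100, a glycine-rich protein or oleosin, the class that coats lipid bodies. It stood at 7.82, 8.16 and 8.28 in *pifq* SD and 6.42, 6.4 and 6.48 in *pifq* LL, against 7.42, 7.85 and 7.74 in WT SD and 6.07, 6.32 and 5.83 in WT LL. Its responses of 1.65 ± 0.17 in *pifq* and 1.6 ± 0.17 in WT did not differ beyond their error. The LEA hydroxyproline-rich glycoprotein gene AT2G01080 had 8.4, 8.77 and 8.56 in *pifq* SD and 7.72, 7.74 and 7.5 in *pifq* LL, against 8.71, 8.9 and 8.6 in WT SD and 7.18, 7.58 and 7.48 in WT LL and responded by 0.92 ± 0.15 in *pifq* and 1.32 ± 0.15 in WT. AT4G25580 is a CAP160 protein, named after a protein of cold-acclimated spinach, and had 7.54, 8.32 and 8.07 in *pifq* SD and 6.69, 6.39 and 6.65 in *pifq* LL, against 8.26, 8.59 and 8.45 in WT SD and 5.74, 5.71 and 6.02 in WT LL. This was a response of 1.4 ± 0.20 in *pifq* and 2.61 ± 0.20 in WT, the second smallest ratio of all members. The early-responsive to dehydration gene AT3G54510 was lower in all *pifq* SD arrays than in any WT SD array, with 7.67, 8.05 and 7.8 in *pifq* SD and 6.78, 6.96 and 7.09 in *pifq* LL, against 8.33, 8.47 and 8.38 in WT SD and 7.06, 7.28 and 7.1 in WT LL. Its responses were 0.90 ± 0.13 in *pifq* and 1.25 ± 0.13 in WT. The glutathione S-transferase AT4G19880, an enzyme class that conjugates glutathione to toxic compounds, lay just inside the limits, with 7.5, 7.77 and 7.91 in *pifq* SD and 6.37, 6.99 and 7.34 in *pifq* LL, against 7.79, 7.99 and 7.79 in WT SD and 7.0, 7.13 and 7.01 in WT LL. It responded by 0.83 ± 0.22 in *pifq* and 0.81 ± 0.22 in WT.

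Among the 32 described members, keywords placed 2 under transcription regulation, and members without a description could not be placed. The keywords left AT2G35170, described as a histone H3 K4-specific methyltransferase SET7/9 family protein, among the other products. AT4G39780 carries the DNA-binding domain of the ERF family, and had 7.07, 7.29 and 7.35 in *pifq* SD and 6.12, 6.08 and 6.25 in *pifq* LL, against 7.2, 7.31 and 7.0 in WT SD and 6.5, 6.08 and 6.07 in WT LL. Its response was 1.09 ± 0.15 in *pifq* and 0.95 ± 0.15 in WT. AT2G36320, an A20/AN1-like zinc finger protein of a family known from stress responses, was the dimmest member in WT SD, with 6.0, 6.07 and 5.98 in *pifq* SD and 5.42, 5.22 and 4.92 in *pifq* LL, against 6.14, 6.11 and 5.94 in WT SD and 5.08, 4.8 and 4.89 in WT LL. It responded by 0.83 ± 0.14 in *pifq* and 1.14 ± 0.14 in WT. AT3G48390 has an MA3 domain, a fold shared with translation initiation factors, and had 7.6, 8.05 and 7.91 in *pifq* SD and 6.16, 6.2 and 5.74 in *pifq* LL, against 7.83, 7.96 and 8.02 in WT SD and 5.92, 5.48 and 5.81 in WT LL. Its responses were 1.82 ± 0.17 in *pifq* and 2.2 ± 0.17 in WT. AT3G48390 adjoins AT3G48380 in the genome, which had 8.87, 9.48 and 9.22 in *pifq* SD and 8.16, 7.91 and 8.06 in *pifq* LL, against 8.77, 9.33 and 8.98 in WT SD and 7.6, 7.83 and 7.76 in WT LL and responses of 1.15 ± 0.18 in *pifq* and 1.3 ± 0.18 in WT.

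Other described products were of mixed kinds. The DPP6 N-terminal domain-like gene AT1G21680 responded by 1.41 ± 0.19 in *pifq* and 1.56 ± 0.19 in WT, and the B12D gene AT3G29970 by 1.14 ± 0.19 in *pifq* and 1.56 ± 0.19 in WT. The SET7/9 family gene AT2G35170 responded by 0.95 ± 0.14 in *pifq* and 1.28 ± 0.14 in WT. An actin family gene, AT2G42170, with 1.19 ± 0.14 in *pifq* and 1.1 ± 0.14 in WT, and a C1 domain gene, AT2G44380, with 0.96 ± 0.23 in *pifq* and 1.12 ± 0.23 in WT, completed them.

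The members lay on all 5 chromosomes, with 29, 16, 22, 14 and 13 on chromosomes 1 to 5. Chromosome 5 held 13.8% of the members and 23.3% of the locus-only genes measured, and chromosome 1 held 30.9% and 26.2%. Only the pairs AT1G19530 with AT1G19540 and AT3G48380 with AT3G48390 were direct neighbours. A further 4 pairs had 1 to 4 protein-coding genes between them. All 94 members are annotated as protein coding by RefSeq (TAIR10.1), and none shared its 12 values with another probe set. For 3 members the array held another probe set of the same gene, and the brightest was used. With the mean of the probe sets of a gene, 91 members were left, all among the 94. With the first probe set by ID, all 94 were kept.

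The genotypes differed little in SD. The *pifq* SD minus WT SD difference had a median of -0.04 and quartiles of -0.16 and 0.16, and 42 members were above 0 (55.5% of all probe sets) and 52 below (44.5%). None was called higher in *pifq* SD (0.632% of all probe sets) and 2 were called lower (0.855%), which is 2.13% of the members. Unadjusted p values under 0.05 were found for 9 members higher and 11 lower in *pifq* SD, with shares of 6.08% and 4.64% over all probe sets. The *pifq* SD arrays all exceeded the WT SD arrays in 8 members (8.86% of all probe sets), and the reverse held in 11 (6.71%). These differences use group means of the rule and are descriptions.

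The 2 members called lower in *pifq* SD go against a description of the set as night-induced without a need for PIFs. Both still rose by at least 0.8 in *pifq*, as the limits demanded. The difference of their responses was not called (limma adjusted p = 0.118 for AT1G73120 and 0.487 for AT3G24450). AT1G73120 had 6.09, 6.63 and 6.87 in *pifq* SD and 5.42, 5.52 and 5.45 in *pifq* LL, against 7.88, 8.06 and 8.24 in WT SD and 5.5, 5.33 and 5.85 in WT LL. Its *pifq* SD arrays all lay below its WT SD arrays, with a difference of -1.53 ± 0.20, while the LL arrays overlapped. Its response was 1.07 ± 0.20 in *pifq* and 2.5 ± 0.20 in WT, the smallest ratio of all members at 0.43. AT3G24450, a heavy metal transport/detoxification family protein, had 5.87, 5.89 and 6.3 in *pifq* SD and 5.19, 5.16 and 5.25 in *pifq* LL, against 6.7, 6.91 and 6.71 in WT SD and 5.18, 5.56 and 5.13 in WT LL. The difference in SD was -0.76 ± 0.15, with responses of 0.82 ± 0.15 in *pifq* and 1.49 ± 0.15 in WT. AT1G67910 had 6.8, 5.93 and 6.49 in *pifq* SD and 5.56, 5.04 and 6.0 in *pifq* LL, against 7.48, 7.24 and 7.32 in WT SD and 5.83, 5.74 and 5.98 in WT LL. Its *pifq* SD arrays also lay below its WT SD arrays, with a difference of -0.94 ± 0.26, but with more scatter, and it was not called. These are the 3 members in which the contribution of PIFq, 100 times the WT SD minus *pifq* SD difference over the WT response, was at least 50%: 61.2% in AT1G73120, 50.9% in AT3G24450 and 62.7% in AT1G67910. Over all members the contribution had a median of 2.44%. It was 25 to 50% in 9 members, 0 to 25% in 40 and below 0 in 42.

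In LL the differences leaned to one side. The *pifq* LL minus WT LL difference had a median of 0.14 over the members, against 0.02 over all probe sets tested, and was above 0 in 70 of the 94 (74.5%, against 54.6% of all probe sets and 46.9% of those with a WT SD mean of at least 6). The 3 *pifq* LL arrays exceeded the 3 WT LL arrays in 33 members (7.74% of all probe sets, 8.08% of those at that level), and the reverse held in 2, AT3G10020 and AT4G18650 (5.58% and 8.76%). No member was called in either direction by limma (higher 0.0105% and lower 0.00787% of all probe sets). At an unadjusted p under 0.05, 23 members (24.5%) were higher in *pifq* LL and 0 lower, against 3.9% and 2.34% of all probe sets and 3.34% and 3.03% at that level. The rule used all 4 group means, so that this is a description and not a test.

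Genes of many levels showed this order. AT5G23380 had 8.87, 9.08 and 9.0 in *pifq* SD and 7.93, 7.9 and 7.81 in *pifq* LL, against 8.67, 8.86 and 8.62 in WT SD and 7.03, 7.12 and 7.23 in WT LL, with a *pifq* LL excess of 0.76 ± 0.11. AT3G15630 had 8.16, 8.34 and 8.35 in *pifq* SD and 7.32, 7.27 and 7.05 in *pifq* LL, against 8.3, 8.41 and 8.5 in WT SD and 6.56, 6.35 and 6.7 in WT LL, with a *pifq* LL excess of 0.67 ± 0.13. Its SD levels overlapped, and its response of 1.07 ± 0.13 in *pifq* stood beside 1.86 ± 0.13 in WT. AT1G15125, one of the members nearest the *pifq* limit, had 6.29, 6.58 and 6.36 in *pifq* SD and 5.54, 5.5 and 5.74 in *pifq* LL, against 6.03, 6.37 and 6.14 in WT SD and 4.75, 4.94 and 5.13 in WT LL. The reverse order was seen in AT3G10020, with 9.44, 9.44 and 9.8 in *pifq* SD and 7.72, 7.75 and 7.75 in *pifq* LL, against 9.31, 9.37 and 9.54 in WT SD and 8.07, 7.79 and 7.89 in WT LL, whose response was larger in *pifq*, at 1.82 ± 0.13, than in WT, at 1.49 ± 0.13.

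**Figure D4:**
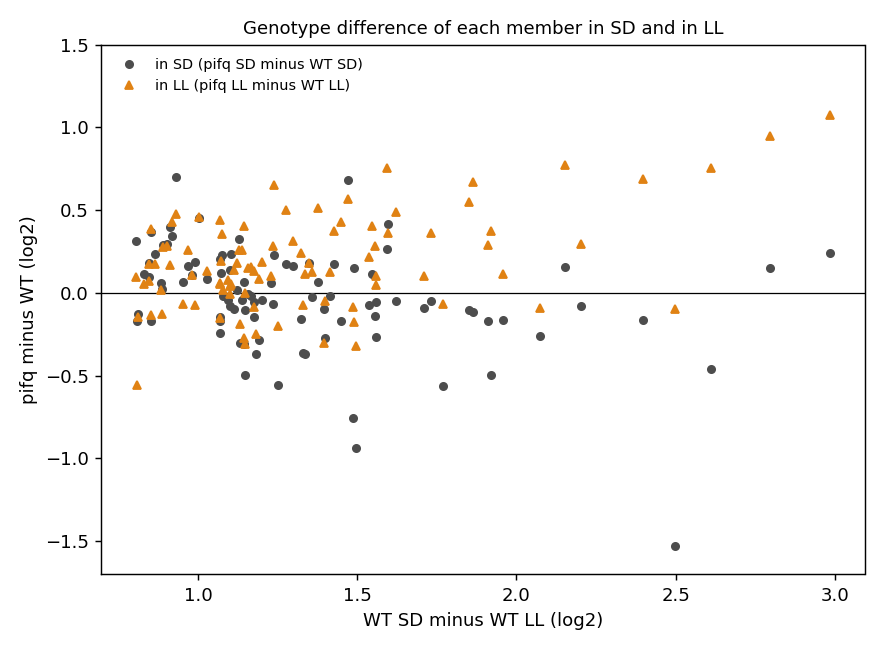
Each member appears as a black point for its *pifq* SD minus WT SD difference and as an orange triangle for its *pifq* LL minus WT LL difference (y axis, log2), over its WT SD minus WT LL response (x axis, log2). The triangles lie above 0 in 70 of 94 members and the points in 42, and the lowest point, at -1.53, is AT1G73120. Both differences share a WT mean with the x axis, so that a trend along it is in part built in.

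The response in *pifq* was accordingly smaller than that in WT in 72 members and larger in 22, with a median ratio of 0.88 and a range of 0.43 to 1.48. No member was called for the difference of the responses (higher 0.0157% and lower 0.139% of all probe sets). At an unadjusted p under 0.05 the response was larger in *pifq* for 0 members (3.33% of all probe sets) and smaller for 13 (3.25%). The 24 members with a WT response of at least 1.5 had a median ratio of 0.73, a median LL difference of 0.36 and a median SD difference of -0.10. The other 70 had a median ratio of 0.91, with medians of 0.12 in LL and 0.02 in SD. The split is by the WT response, and the genotype differences use the same WT SD and WT LL means. A lower ratio, a higher LL difference and a lower SD difference in the upper class are therefore in part built in. By size of the WT response, the response in *pifq* was smaller in 8 of 8 members at 2 or more, in 15 of 16 at 1.5 to under 2, in 44 of 50 at 1 to under 1.5 and in 5 of 20 under 1.

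The members with the smallest ratios after AT1G73120 and AT4G25580 were AT1G62770, AT3G24450 and AT3G15630. AT1G62770 had 6.5, 6.41 and 6.84 in *pifq* SD and 5.77, 5.59 and 5.24 in *pifq* LL, against 7.17, 7.07 and 7.0 in WT SD and 5.59, 4.91 and 4.99 in WT LL, and its response of 1.05 ± 0.20 in *pifq* stood against 1.92 ± 0.20 in WT. At the other end, AT5G05880 had the highest ratio, with 5.74, 6.31 and 5.67 in *pifq* SD and 5.73, 3.94 and 4.45 in *pifq* LL, against 6.02, 6.11 and 6.1 in WT SD and 5.28, 5.06 and 5.47 in WT LL. Its *pifq* LL arrays were scattered, and its responses of 1.2 ± 0.37 in *pifq* and 0.81 ± 0.37 in WT had a difference, *pifq* minus WT, of 0.39 ± 0.53. AT3G52070 was tighter, with 7.32, 7.66 and 7.36 in *pifq* SD and 6.49, 6.42 and 6.37 in *pifq* LL, against 7.21, 7.18 and 7.03 in WT SD and 6.35, 6.3 and 6.34 in WT LL. Its responses were 1.02 ± 0.12 in *pifq* and 0.81 ± 0.12 in WT, and its SD arrays did not overlap between genotypes. AT5G46840, with 7.1, 7.29 and 7.32 in *pifq* SD and 6.04, 6.13 and 6.11 in *pifq* LL, against 6.72, 7.04 and 6.75 in WT SD and 5.86, 5.87 and 6.06 in WT LL, showed the same order, at 1.14 ± 0.12 in *pifq* and 0.91 ± 0.12 in WT. The jacalin lectin AT1G33790, of a family of carbohydrate-binding proteins, had 7.64, 7.75 and 7.68 in *pifq* SD and 6.14, 6.81 and 6.64 in *pifq* LL, against 6.89, 7.18 and 6.89 in WT SD and 6.25, 5.87 and 6.05 in WT LL. It was the member farthest above WT in *pifq* SD, by 0.70 ± 0.18, was not called there, and had the most negative contribution of PIFq, -75.3%.

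One comparison was uncorrelated in its array error with both responses, namely the mean of *pifq* SD and *pifq* LL minus the mean of WT SD and WT LL. A shift of a genotype as a whole leaves its SD minus LL difference as it is. Of the limits, only the WT SD minimum bears on that error. The comparison is also the mean of the SD and LL differences given above, so that a difference in 1 regime alone enters it. Of the 94 members 0 were called higher in *pifq* (0.108% of all probe sets) and 1 was called lower (0.409%), which was AT1G73120 with -0.81 ± 0.14 (SE, n = 6 arrays per genotype, limma adjusted p = 0.0294). Its difference was -1.53 ± 0.20 in SD and -0.10 ± 0.20 in LL, so that it was no shift of the genotype as a whole. This call was kept in 3 and lost in 9 of the 12 fits that left out 1 array, with adjusted p of 0.0306 to 0.0905. It was lost without any 1 of the WT SD arrays, the *pifq* LL arrays, WT LL replicates 1 or 3, or *pifq* SD replicate 2, while the estimate stayed between -0.90 and -0.71. The largest positive difference was that of AT1G19540, 0.66 ± 0.14 (limma adjusted p = 0.0624), which was not called. Without *pifq* SD replicate 1, AT1G19540 was called at 0.76 (limma adjusted p = 0.022), and without *pifq* LL replicate 1 AT1G33790 was called at 0.69 (limma adjusted p = 0.0232).

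Below the threshold the differences were unevenly spread. At an unadjusted p under 0.05, 26 members (27.7%) were higher and 8 (8.51%) lower in *pifq*. Among probe sets with a WT SD mean of at least 6 these shares were 9.06% and 8.7%, and among all probe sets 6.96% and 4.67%. Estimates above 0 were found in 65 members, 69.1%, against 48.1% of probe sets at that level and 56.8% of all. The median was 0.08, against 0.03 over all probe sets tested. As the mean of both regimes, it repeats the lean in LL, where the median was 0.14, against -0.04 in SD. An adjusted p under 0.05 with no regard to fold was found for 1 lower member, AT1G73120 (0.595% of all probe sets), and for 1 higher member, AT5G23380 (0.302%), at 0.51 ± 0.08 (limma adjusted p = 0.0158), which is under the 1.5 fold required for a call. The leucine-rich repeat gene AT2G15880 had 7.5, 8.31 and 7.6 in *pifq* SD and 6.4, 6.12 and 6.15 in *pifq* LL, against 7.0, 7.09 and 7.28 in WT SD and 5.73, 5.46 and 5.77 in WT LL. Its *pifq* arrays exceeded the WT arrays in both regimes, with a genotype difference of 0.62 ± 0.14 (limma adjusted p = 0.0928).

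**Figure D5:**
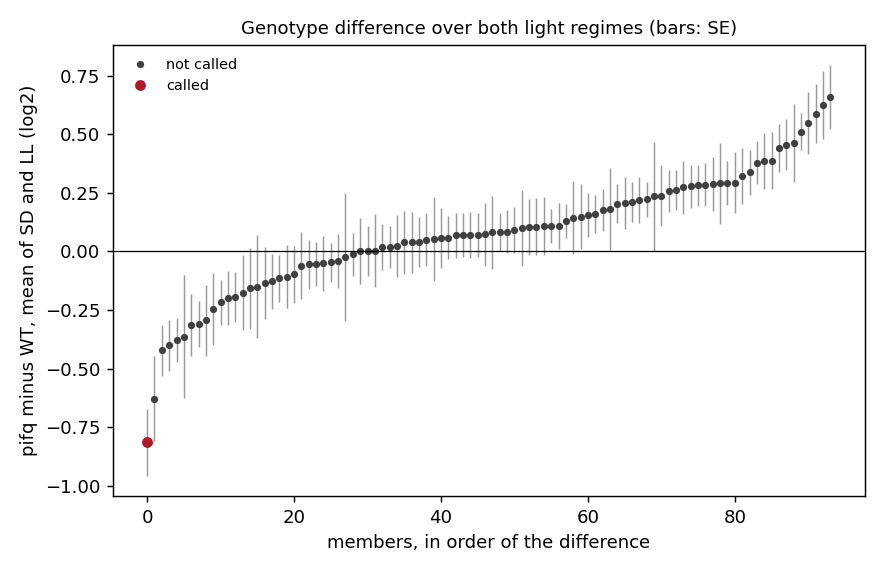
Points are the 94 members in order of the genotype difference, the mean of *pifq* SD and *pifq* LL minus the mean of WT SD and WT LL (y axis, log2), with bars of 1 SE. The called member, AT1G73120 at -0.81, is in red at the left end, and 65 of the 94 points lie above 0.

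The closest set for comparison was the 129 locus-only genes that met the WT limits but rose by less than 0.8 in *pifq*. The WT response of these genes had a median of 0.95, below the 1.19 of the members, and their *pifq* response one of 0.48. In SD 38 of the 129 were called lower in *pifq* (0.855% of all probe sets), beside the 2 of 94 members, an outcome that the choice of the sets favours. In LL the 129 genes had a median difference of 0.13, near the 0.14 of the members. An unadjusted p under 0.05 was found for 26 higher and 7 lower in *pifq* (3.9% and 2.34% of all probe sets). The lean towards *pifq* LL was thus also seen in these genes. All sets compared here were chosen on a WT response of at least 0.8, which favours a low WT LL mean. The lean is therefore in part built into each set. For the genotype difference over both regimes, 22 of the 129 were called lower and 0 higher (0.409% and 0.108% of all probe sets). As the mean of both regimes, this difference includes the one in SD. The 13 genes with a symbol that met the limits had a median LL difference of 0.32. Of these, 7 were higher and 0 lower by the unadjusted p in LL (3.9% and 2.34% of all probe sets). No test of the differences between these sets was made.

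Over the 5145 locus-only genes with a WT SD mean of at least 6, the *pifq* and WT responses, which use separate arrays, correlated across genes with r = 0.79 (Pearson) and rho = 0.77 (Spearman). Within the members r was 0.72 and rho 0.60. Genes are not independent replicates, and the limits cut the range of the members.

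Near the limits the values ran on without a gap. In WT the members just inside were AT3G52070, AT5G05880 and AT4G19880, all at 0.81, and the genes just outside were AT2G18196 (0.80), AT1G42430 (0.77) and AT5G46710 (0.75). In *pifq* AT1G30720 (0.81), AT3G24450 (0.82) and AT1G15125 (0.82) were inside, and AT1G21326 (0.80), AT1G53400 (0.80) and AT2G46900 (0.78) outside. At the level limit AT2G36320 (6.06), AT5G05880 (6.08) and AT2G44380 (6.12) were inside, and AT1G25400 (5.99), AT4G14145 (5.94) and AT1G78460 (5.89) outside. The least certain members were dim and scattered. AT1G30720 had 5.84, 6.86 and 7.07 in *pifq* SD and 5.91, 5.76 and 5.68 in *pifq* LL, against 6.43, 6.93 and 6.21 in WT SD and 5.56, 5.71 and 4.87 in WT LL, with *pifq* SD replicate 1 inside the *pifq* LL range. AT3G60180 had 6.22, 5.65 and 6.08 in *pifq* SD and 4.29, 5.54 and 5.67 in *pifq* LL, against 6.24, 6.01 and 6.2 in WT SD and 5.36, 5.19 and 5.36 in WT LL, with *pifq* LL replicate 1 far below the others.

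The members were set beside known dark-response genes of a list of 29 dark and sugar starvation genes. The platform names 6 of these, of which 5 were called higher in SD in *pifq* (1.79% of all probe sets) and 5 in WT (3.16%). Their median response was 0.99 in *pifq* and 1.30 in WT. None of these 6 was called between genotypes in SD. One of the 6 is the member AT3G15450. A further 14 were named only through the study's list of called genes, which favours called ones, and of these 13 were called higher in SD in *pifq* and 14 in WT, the median response being 1.27 in *pifq* and 1.42 in WT. One of these 14, AT1G28330, was called lower in *pifq* SD than in WT SD, at -0.61, with a response of 0.32 in *pifq* and 1.25 in WT. Another 6 genes, known to be induced by PIFs, were also named only through that list of called genes, so that their calls are no separate evidence. All 6 were called lower in *pifq* SD against WT SD (0.855% of all probe sets) and higher in WT SD against WT LL (3.16%). Their median response was -0.22 in *pifq* and 2.63 in WT. The mutated genes were low in *pifq*, with SD differences of -4.06 for *PIF3*, -3.74 for *PIF5* and -1.61 for *PIF1*, and no probe set is named for *PIF4*. Of the tissue markers, the platform names 1 of 6 for green tissue, *RCA* (AT2G39730), with means of 12.94 in *pifq* SD, 13.15 in *pifq* LL, 12.75 in WT SD and 13.17 in WT LL, and 1 of 8 for root, *EXPA7* (AT1G12560), with 7.47, 7.43, 7.61 and 7.29 in the same order. Neither was called in any comparison. Of 19 seed maturation genes only *BETA-TIP* (AT1G17810) is named, through the study's list, and it rose by 2.46 in *pifq* and by 2.73 in WT. Whether this has a part in the rise of the members was not tested.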

How the data were processed

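Whole seedlings of 4 groups (*pifq* SD, *pifq* LL, WT SD, WT LL) were profiled with 3 arrays each. The authors deposited log2 signals, made by RMA per the submitters' processing notes: background correction, quantile normalization and 1 summary value per probe set, which removes shifts shared by most genes. No RMA version or genome build is given in the sources used here. Rosetta Resolver with an error-weighted analysis of variance gave the study's own calls, which were not used. Labels and methods name different growth media (MS and GM).

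The table holds 38408 probe sets. Leaving out 98 controls and, for genes with several, the 180 dimmer ones left 38130. The platform annotation gives 1 gene for 16722, several for 759 and none for 20927, and it can be old. Of all probe sets, 7132 share their 12 values with another. Array medians were 5.00 to 5.12. The number of arrays and the scatter between them, which differs between genes, limit the precision.

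limma 3.58.1 (R 4.3.3) fitted the group means, with 1 variance for all groups, Benjamini-Hochberg adjustment over all 38130, and calls at an adjusted p under 0.05 and 1.5 fold. Tables and figures used Python 3.11.15, pandas 2.3.3, numpy 2.4.6 and matplotlib 3.10.9. The fit was tested on simulated data. The members, gene lists and settings were chosen with earlier results of these data known. Genes named are the members with the 10 largest WT responses, the 5 highest WT SD levels, the 5 largest and 5 smallest response ratios, calls for genotype, up to 2 per product group, those at the limits and direct neighbours. Others were named after their values were seen: the arrays' overlap exceptions AT1G67910, AT3G60180 and AT1G30720, the LL cases AT5G23380, AT3G10020 and AT4G18650, AT2G15880, and the remaining described members. Product groups were matched by keywords, with whole-word starts required after a first match had been seen. Promoter motifs, protein sequences and the share of product groups over all genes were not analysed here.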

Additional observations from a re-analysis of the deposited data

How the results depend on the processing

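The number of members moved with the limits, from 94 to 192 at a response of at least 0.6 and to 47 at 1.0, with a median *pifq* response of 0.83 and 1.23 and a median WT response of 0.93 and 1.54. The other settings of scaling, probe choice and level gave 67 to 110 members. Leaving out 1 array at a time gave 83 to 107 members, median responses of 1.04 to 1.08 in *pifq* and 1.15 to 1.26 in WT, a median genotype difference of 0.05 to 0.11, and 0 to 1 members called higher and 0 to 1 lower in *pifq*. The medians in arrays left out of the choice were 0.77 to 1.16 in *pifq* and 1.08 to 1.35 in WT.

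The call of AT1G73120 lay near the threshold. It was lost in 9 of the 12 fits without 1 array, with the estimate at -0.90 to -0.71 over the 12 fits, and was kept in every other setting run. Members called higher in *pifq*, 0 in the reported fit, were 1 (AT1G42430, a gene just outside the limit otherwise) with each array centred on its median or at a response of at least 0.6, where 2 were called lower, 1 (AT5G23380) with no minimum fold, and 3 (AT1G19540, AT1G33790 and AT2G15880) with limma-trend or with probe sets of a mean under 4 left out. Over all probe sets, 41 were higher and 156 lower in *pifq*, against 67 and 184 with limma-trend, 115 and 227 with no minimum fold, 23 and 99 without WT LL replicate 3, and 23 and 118 without *pifq* SD replicate 3. The causes were not tested.

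By the rule used, the replicate numbers were not taken to pair the arrays over all groups. Correlations of deviations from the group means were -0.07 to 0.35 between same-numbered arrays and -0.23 to 0.12 between others. Between WT SD and *pifq* SD arrays they were 0.15, 0.35 and 0.08 for the same number, and -0.23 to 0.12 for different numbers. In both of these groups replicate 1 was the lowest array for most members, a count without a share of all probe sets beside it. Members that respond together are not separate evidence on an array. A shift shared by number in SD remains possible. With the number as a replicate block, 0 members were called higher and 1 lower in *pifq*, with -0.81 for AT1G73120 (limma adjusted p = 0.0288), and 39 higher and 129 lower of all probe sets.

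With 3 arrays per group and no batch in the labels, a shared day or position cannot be told apart from replicate number, and calls near the threshold turn on single arrays.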
